A study of Homo sapiens with 6 samples.

Results

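The data are counts of reverse transcription (RT) stops on polyadenylated RNA of U2OS cells, an established human osteosarcoma line, and the transcripts described here are those of 10 extracellular matrix genes. They comprise 7 collagen chains (COL1A1, COL4A1, COL4A2, COL5A1, COL6A1, COL6A2 and COL6A3) and 3 non-collagen matrix proteins (FN1, SPARC and THBS1). The genes were chosen by name, each is represented by a single RefSeq transcript, and together they are 10 of 15739 RefSeq transcripts listed in the tables. A transcript was taken as covered where it held at least 100 listed stops in each of the 6 libraries. COL6A2, with 48 stops in the starved cells, missed that minimum, and the other 9 passed it.

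Each condition is represented by a single unreplicated library, so no difference below was tested and the intervals are exact 95% intervals that cover counting error only. A pair of libraries came from RNA without dimethyl sulfate (DMS), reverse transcribed in 150 mM of either potassium or a second cation that the labels call sodium and the methods call lithium. For another pair, RNA was refolded in 150 mM K+ or Li+ and then treated with DMS. The last pair came from living cells given 8% DMS for 5 min, either unstressed or starved for 2 h in Hank's balanced salt solution (HBSS), and for all DMS libraries RT was in K+. The libraries held between 12999691 and 35371061 listed stops, and only nucleotides with at least 3 stops were listed. The names of the deposited files give the labels of the no-DMS pair the other way round, so these are called the library labelled K+ and the library labelled Na+ throughout, and cation comparisons are given for both assignments.

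Guanine-rich RNA can fold into a G-quadruplex, a stack of G tetrads that K+ holds more firmly than Na+ or Li+ and that halts reverse transcriptase at its 3′ edge. DMS methylates unpaired A and C, and RT then stops next to the modified base, so that the stops at A and C report on base pairing. The triple helix of collagens is built from the tripeptide Gly-X-Y, and every glycine codon begins with GG. The coding sequence of a collagen domain therefore places a pair of G at every 9 nt for long stretches, which is the spacing at which short G runs could be read as a quadruplex motif. Fibronectin (FN1), the calcium-binding glycoprotein SPARC and thrombospondin-1 (THBS1) are secreted into the same matrix and carry no such repeat.

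Gly-X-Y runs of at least 6 triplets held 1897 glycine codons in the 7 collagens and 0 in the other 3 genes. COL1A1 (chromosome 17, minus strand), a chain of type I collagen of bone and skin, held 355 of them, 338 in a single run. COL4A1 and COL4A2, neighbours on chromosome 13 that encode the basement membrane chains, held 437 and 421, but in 22 and 23 runs, the longest of 40 and 66 triplets. COL5A1 (chromosome 9), a regulator of fibril width, had the same 355 as COL1A1, with a longest run of 338. The microfibril chains COL6A1 and COL6A2 (chromosome 21) and COL6A3 (chromosome 2) held 109, 110 and 110. Glycine codons of the repeats were GGT in 472 cases, GGC in 505, GGA in 606 and GGG in 314. COL1A1 used GGG for only 10 of its 355, against 101 of 421 in COL4A2.

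The following stretches are from the middle of the longest run in COL1A1 (chr17:48269194-48269220, minus strand, exon 31 of 51), COL4A2 (chr13:111132620-111132646, plus strand, exon 31 of 48) and COL6A1 (chr21:47411960-47411986, plus strand, exon 16 of 35), in GRCh37. They are shown for the spacing of the repeat. Capitals mark the first 2 bases of each glycine codon.
COL1A1 repeat: GGtgtgcaaGGtccccctGGtcctgct
COL4A2 repeat: GGcatgaaaGGtctctctGGtgacaga
COL6A1 repeat: GGgagctcgGGaccatctGGagacgag

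A 2-G motif was defined as 4 runs of at least 2 G, joined by loops of up to 9 nt, within the 45 nt that end at a given G. It ended at 2895 of 11488 coding G in the 7 collagens (25.2%) and at 43 of 3084 in FN1, SPARC and THBS1 (1.39%). The share in single collagens ran from 8.35% in COL6A3 to 37.8% in COL4A1. A stricter 3-G motif (runs of at least 3 G, loops of up to 7 nt) ended at 43 coding G of the collagens and at 0 of COL1A1 and of the 3 non-collagen transcripts. The first motif was common in the collagens and the second was rare in them.

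The stops themselves are given as the enrichment E, the stops at a nucleotide divided by the mean over all nucleotides of that transcript in that library. Single nucleotides were read only where this mean was at least 1. Without DMS, 5 transcripts passed this minimum in both libraries: COL1A1 with 4.28 and 4.31 stops per nucleotide (labelled K+ and labelled Na+), COL4A2 with 1.69 and 1.62, FN1 with 2.02 and 1.92, SPARC with 8.82 and 8.38 and THBS1 with 5.11 and 4.71.

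At the G of repeat glycine codons of COL1A1, the mean E was 0.891 in the library labelled K+ (2709 stops at 710 nucleotides) and 0.904 in that labelled Na+ (2768 stops). All other coding G of COL1A1 had a mean E of 1.15 and 1.12. The ratio of repeat glycine G to other coding G was 0.778 (interval 0.739 to 0.818) in the library labelled K+ and 0.807 (0.767 to 0.849) in that labelled Na+. Repeat glycine G thus had fewer stops than other coding G in both libraries, but the first G alone had a ratio of 0.979 and 1.01, so that the difference lay in the second G. Of the other coding G, 375 lay in X and Y codons of the repeat. Against these 375 G alone the ratio was 0.972 (0.912 to 1.04) and 1.00 (0.941 to 1.07), with intervals that include 1. Averaged over both G, glycine codons and the other codons of the repeat therefore had about the same level.

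COL4A2 gave a mean E of 0.414 and 0.418 at repeat glycine G, lower than the 0.591 and 0.577 at its other coding G. Its ratio was 0.700 (0.630 to 0.777) in the library labelled K+ and 0.724 (0.650 to 0.806) in that labelled Na+. Unlike in COL1A1, the ratio stayed under 1 against the X and Y codons, at 0.786 (0.691 to 0.895) and 0.730 (0.642 to 0.830). Among the non-collagen genes, glycine G had a mean E of 0.629 and 0.537 in FN1 and of 0.523 and 0.515 in THBS1, but of 1.10 and 1.01 in SPARC, where all coding G had 0.999 and 0.989. Among 942 transcripts with at least 20 glycine codons and at least 100 stops at their G, the median ratio of glycine G to other coding G was 0.838 (labelled K+) and 0.864 (labelled Na+). With all glycine codons counted, COL1A1 stood at 0.826 and 0.865 and COL4A2 at 0.681 and 0.729, so the value of COL1A1 is near the median transcript. Without a repeat, FN1 stood at 0.927 and 0.779 and THBS1 at 0.801 and 0.792.

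Stops within the glycine codon were unequal. In COL1A1 the first G of repeat glycine codons had a mean E of 1.12 and 1.14 and the second G of 0.660 and 0.672 (labelled K+ and Na+), a ratio of 1.70 (1.57 to 1.84) and 1.69 (1.57 to 1.83). In the refolded RNA the same ratio was 1.49 (1.32 to 1.68) in K+ and 1.50 (1.37 to 1.66) in Li+, and in unstressed cells it was 2.45 (1.66 to 3.67). COL4A2 showed no such step without DMS, with ratios of 1.04 (0.880 to 1.22) and 0.966 (0.816 to 1.14), but in the refolded RNA it had 1.24 (0.766 to 2.03) in K+ and 1.55 (1.16 to 2.07) in Li+. Over the 942 transcripts the median was 1.17 and 1.08, and 88.2% and 91.4% of transcripts lay under COL1A1. THBS1, without a repeat, stood at 1.18 and 1.68, so in one library a step of that size also occurred without a repeat.

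**Figure D1:**
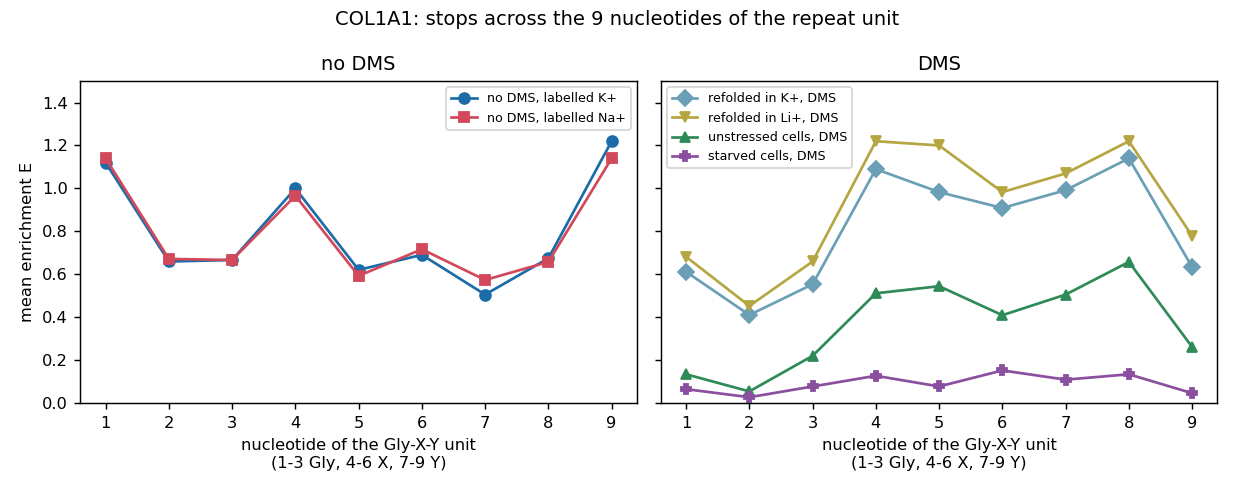
Mean enrichment E at each of the 9 nucleotides of the Gly-X-Y unit over the repeats of COL1A1 (355 units), without DMS (left, 2 libraries) and with DMS (right, 4 libraries). Without DMS the curves of both libraries nearly coincide, with 1.12 and 1.14 at the first G, whereas with DMS the X and Y codons, rich in A and C, rise above the glycine codon.

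Stops were then compared at G that end the 2-G motif. COL1A1 had 406 such coding G, with a mean E of 0.680 in the library labelled K+ and 0.705 in that labelled Na+, lower than the 1.15 and 1.14 at coding G outside the motif. The ratio between the libraries (labelled Na+ over labelled K+) was 1.04 (0.956 to 1.12) for motif G and 0.985 (0.947 to 1.02) for the other coding G. In COL4A2 the 611 motif G gave 0.464 and 0.438, with a ratio between libraries of 0.945 (0.828 to 1.08). Over 507 transcripts with at least 20 motif G, the median of that ratio was 1.95, and 16.0% of them lay under COL1A1 and 10.8% under COL4A2. Coding motif G of COL1A1 and COL4A2 therefore had nearly equal stops in both libraries, whichever of them was the K+ one. The other 5 collagens, all with fewer than 1 stop per nucleotide, were not alike in this. COL6A1 held 3 listed stops at its 214 motif G in the library labelled K+ and 87 in that labelled Na+, and COL5A1 59 and 100 at 603. COL4A1 held 77 in both, COL6A2 41 and 47 and COL6A3 29 and 26.

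A strong stop was called where E was at least 10. Among 6268 coding G of the 5 transcripts past the minimum there were 0 strong stops in either library, beside a background over all 3568 such transcripts of 0.0563% of coding G in the library labelled K+ and 0.137% in that labelled Na+. For coding G ending the 2-G motif the background was 0.041% and 1.72%. COL1A1 and COL4A2 together held 1017 of them, and 0 of 1017 allows a share of up to 0.295%, taking 3 counts as the limit of a count of 0. The background for motif G that were also at least 2-fold stronger than in the other library was 0.0% (labelled K+) and 1.65% (labelled Na+). It was 1.49% for the 50819 coding G that end the 2-G but not the 3-G motif, the class to which 1005 of the 1017 belong. The 3-G motif is the rarer and stronger class, with 23.5% of 374 coding G called in the library labelled Na+. COL4A2 held 12 of these, which collected 13 stops (labelled K+) and 22 stops (labelled Na+) in all, with a highest E of 5.32 and 4.94.

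The highest E at a coding G of COL1A1 was 7.19, with 31 stops in the library labelled Na+ and 21 in the library labelled K+ (E 4.90), a ratio of 1.47 (0.816 to 2.69). It lay in the repeat, at a glycine codon (chr17:48272628, exon 19 of 51, the last base of chr17:48272628-48272657 on the minus strand). The highest in COL4A2 was 6.51, outside the repeat, in FN1 6.76, in SPARC 4.18 and in THBS1 5.31. None of these 5 sites had an E of at least 10.

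In the other 5 collagens, few stops are enough to reach an E of 10. Strong coding G numbered 4 (labelled K+) and 2 (labelled Na+) of 1822 in COL5A1. They numbered 0 and 4 of 1056 in COL6A1, 0 and 1 of 2742 in COL6A3, and 0 of 1659 in COL4A1 and of 1025 in COL6A2. The background shares above are for transcripts past the minimum, so none of like depth stands beside these counts. The absence of strong coding G thus holds for the 5 transcripts past the minimum and not for all collagens.

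In the 5 transcripts past the minimum, strong G stops that differed between cations lay in 3′ untranslated regions (UTRs). These transcripts held 1421 3′ UTR G, of which 5 (0.352%) were strong and at least 2-fold stronger in the library labelled Na+, beside a background of 0.367%. In the opposite direction there was 1 (0.0704%), beside 0.0187%. All 5 ended the 2-G motif. The 5 transcripts had 50 such 3′ UTR G, so that 10.0% were called, beside a background of 9.33% (0.04% in the opposite direction). The share in the 3′ UTRs was therefore near the background, beside the 0 of 1017 at coding motif G of COL1A1 and COL4A2 given above.

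The sequences of 30 nt that end at the strongest of these sites are shown for their G runs. Beside them stand those of a 3′ UTR site of COL5A1, a transcript under the minimum, and of the strongest coding G of COL1A1. Capitals mark runs of at least 2 G, and the last base is the nucleotide at which the stop was listed. In GRCh37 the COL1A1 3′ UTR sites are chr17:48261947-48261976 and chr17:48262011-48262040 (minus strand, exon 51 of 51), the COL5A1 site is chr9:137734473-137734502 (plus strand, exon 66 of 66) and the SPARC site is chr5:151042686-151042715 (minus strand, exon 10 of 10).
COL1A1 3′ UTR, distal: acatctatgtgatGGGtGGGGtGGGGaGGG
COL1A1 3′ UTR, proximal: aactgcctGGGGGcGGGGatGGGGGcaGGG
COL5A1 3′ UTR: tcgtgaataGGtctcaGGGGttGGGGGaGG
SPARC 3′ UTR: tccccaGGtGGcctGGaGGtGGGcaaaGGG
COL1A1 repeat, highest coding G: ctGGtgcccgaGGcccctctGGaccccaGG

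The largest by stop count was the distal site of COL1A1, which ends the 3-G motif. It held 17 stops in the library labelled K+ (E 3.97) and 527 in that labelled Na+ (E 122), a ratio of 30.8 (19.1 to 53.3). In the DMS libraries it held 21 stops in RNA refolded in K+ (E 6.69), 7 in Li+ (E 1.60), 9 in unstressed cells (E 4.65) and 11 in starved cells (E 12.2). The library labelled Na+ was far above the others, RNA refolded in K+ was above that in Li+ with a ratio of 4.18 (1.71 to 11.6), and starved cells, where COL1A1 was under the minimum of 1 stop per nucleotide, had a ratio to unstressed cells of 2.63 (0.991 to 7.19), an interval that includes 1. The G just before it held 14 and 73 stops. At the proximal site there were 4 and 71 stops (labelled K+ and labelled Na+), with a ratio of 17.6 (6.59 to 66.5), and 6 nt upstream of it 0 and 49.

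In SPARC the 3′ UTR site held 26 stops in the library labelled K+ (E 2.95) and 168 in that labelled Na+ (E 20.1), a ratio of 6.80 (4.48 to 10.7). It had 10 and 7 stops in RNA refolded in K+ and Li+, 5 in unstressed cells and 0 in starved cells. COL5A1 had no listed stop at its site in the library labelled K+ and 244 in that labelled Na+, at least 77.0-fold higher against the floor of 3 stops. This transcript had a mean of 0.592 and 0.626 stops per nucleotide, under the minimum, so the counts and not the E of 390 carry the difference. COL5A1 had 7 strong G at least 2-fold stronger in each direction, of which those with at least 20 stops were this site and its neighbour with 0 and 51. FN1, THBS1 and COL4A2 had no strong G that met the cation criterion.

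In the 5 transcripts past the minimum a single site went the other way. It was a 3′ UTR G of COL1A1 (chr17:48262669) with 48 stops in the library labelled K+ (E 11.2) and 22 in that labelled Na+ (E 5.10), a ratio of 0.456 (0.262 to 0.769). It does not end a 2-G motif.

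**Figure D2:**
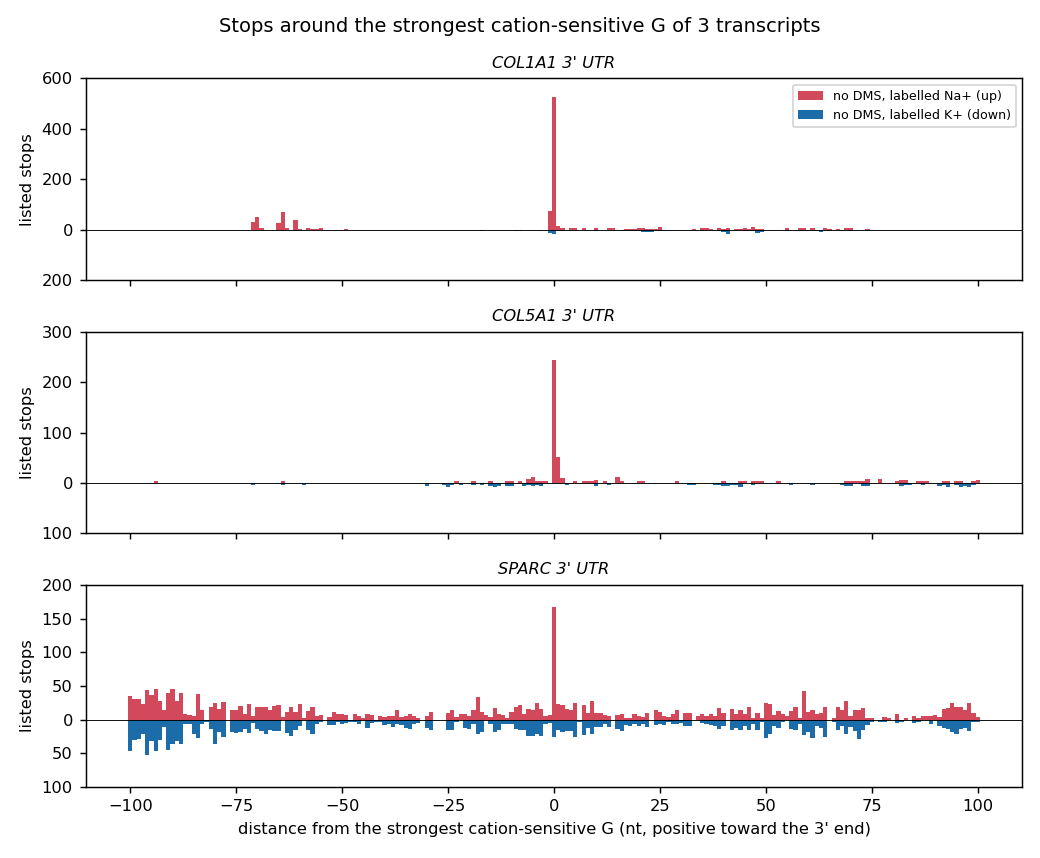
Listed stops at each nucleotide within 100 nt of the strongest cation-sensitive G in the 3′ UTR of COL1A1, COL5A1 and SPARC, with the library labelled Na+ drawn upward and the library labelled K+ downward on the same scale. The tallest upward bar of each panel is the site itself (527, 244 and 168 stops). In COL1A1 a second cluster of upward bars, up to 71 stops against 4 downward, marks the proximal site, and in COL5A1 the next nucleotide holds 51 against 0.

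Refolding in K+ or Li+ before DMS asks whether G are held in quadruplexes in one cation and not in the other. DMS also methylates G at N7 unless a G tetrad shields it, and a methylated G no longer takes part in the fold that halts RT, so that stops at G report on that protection rather than on pairing. At repeat glycine G of COL1A1 the mean E was 0.511 in K+ (1140 stops) and 0.568 in Li+ (1763 stops), a ratio of 0.901 (0.835 to 0.971). Other coding G of COL1A1 moved by the same amount, with a ratio of 0.916 (0.857 to 0.978), as did coding A and C, with 0.926 (0.902 to 0.951). COL4A2 had a ratio of 0.490 (0.371 to 0.642) at repeat glycine G and 0.750 (0.619 to 0.907) at other coding G, on 74 and 209 stops at the former. Coding G of FN1, without a repeat, had a ratio of 0.703 (0.618 to 0.799), of THBS1 0.823 (0.753 to 0.900) and of SPARC 0.919 (0.842 to 1.00). With unlisted nucleotides counted as 2 stops in place of 0, each of these ratios turned to over 1: to 1.15, 1.11 and 1.01 for the 3 classes of COL1A1, 1.34 for both classes of COL4A2, 1.26 for FN1, 1.18 for THBS1 and 1.02 for SPARC. The direction between the cations is therefore not settled by these counts. Depth moved with these ratios, since the K+ library held 21480565 listed stops and the Li+ library 31174408, and stops under 3 were unlisted more often in the former. Its part in them was not tested.

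Stops at A or C rose with DMS in every member. For COL1A1 they made up 49.0% and 47.7% of stops without DMS, 78.6% and 76.4% in RNA refolded in K+ and Li+, 90.2% in unstressed cells and 85.3% in starved cells. SPARC was at 50.4% and 50.3%, then 80.3% and 78.5%, then 86.6% and 77.7%. COL4A1, a thin transcript, had 95.6% and 92.8% of its listed stops at A or C in refolded RNA and 97.1% in unstressed cells, but 77.3% in refolded RNA in K+ and 84.8% in unstressed cells with unlisted stops rebuilt, close to the 78.4% and 83.7% of SPARC. In each of the 9 covered transcripts starved cells had the lower share, by 1.00 percentage points in COL6A1 to 10.5 in FN1. The intervals of both shares overlapped in COL6A1 and COL6A3. The 2 bases did not move alike. The share at C alone was lower in starved cells in all 9, in COL1A1 20.3% against 37.3%. That at A alone was lower in COL5A1, FN1 and THBS1 and higher in the other covered transcripts, in COL1A1 65.0% against 52.9%. With unlisted stops rebuilt from the deposited base means the drop was 10.6 percentage points in COL6A1, 10.5 in FN1 and 0.900 in COL6A3, so the direction held in all 9 and the order of COL6A1 did not. Over all 5804 transcripts with coverage in every library, 97.8% were lower in starved cells, so that the direction was that of nearly every transcript.

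Within COL1A1, A and C of the repeat gave fewer stops than A and C of the rest of the coding sequence. The 2 bases were pooled, although coding A had a mean E of 1.32 and coding C of 0.631 without DMS (labelled K+). The part of the mix of A and C in the repeat was not tested. Mean E at A and C of the repeat and of the rest was 1.29 and 1.64 in refolded RNA in K+, a ratio of 0.785 (0.753 to 0.819). The ratio in Li+ was 0.821 (0.793 to 0.850). Without DMS the same ratio was 0.554 (0.530 to 0.579) and 0.559 (0.534 to 0.584), and in unstressed cells it was 0.318 (0.300 to 0.337). The deficit in the repeat was thus present without DMS, smaller in refolded RNA and larger in cells, where stops also lay closer to the 3′ end. In COL4A2 the ratio was 0.581 and 0.705 without DMS, 0.674 (0.620 to 0.732) in K+ and 0.852 (0.797 to 0.910) in Li+.

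In cells the stops crowded toward the 3′ end. In COL1A1, 21.7% and 23.5% of stops lay in the 3′ UTR without DMS and 38.7% in unstressed and 62.5% in starved cells. In COL4A2 the shares were 31.1% and 31.5% without DMS, 73.6% in unstressed cells and 96.3% in starved cells, and in THBS1 they were 60.6% and 60.5%, 96.0% and 99.7%. COL6A3, the longest of the transcripts, went from 29.2% and 28.1% to 79.5% and 96.1%. The coding sequence of COL4A2 retained 18 listed stops in starved cells and that of THBS1 also 18. Position along the transcript and the repeat were not separated here for the collagens, whose repeats lie upstream of the 3′ UTR.

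**Figure D3:**
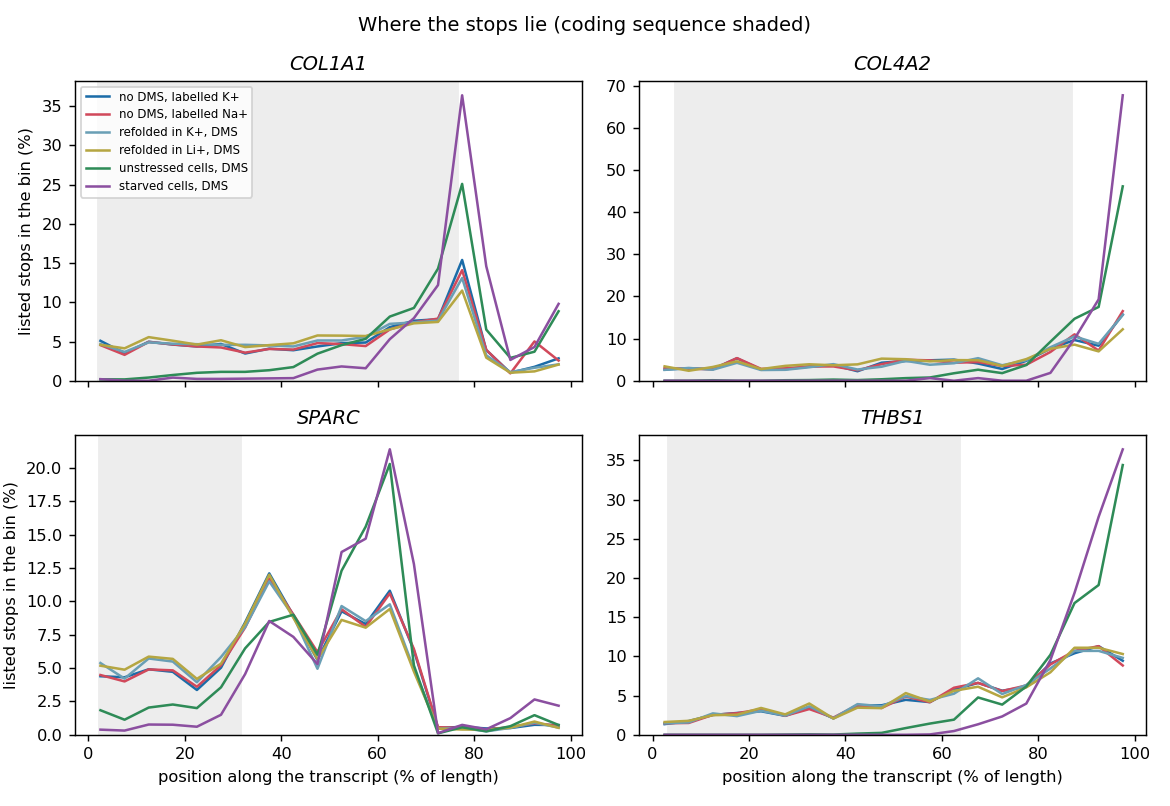
Share of each library's listed stops in 20 equal bins along the transcripts of COL1A1, COL4A2, SPARC and THBS1, from the 5′ to the 3′ end, with the coding sequence shaded. The 4 libraries made without living cells run together, and both in-cell libraries rise toward the 3′ end, with 62.5% of COL1A1 and 99.7% of THBS1 stops in the 3′ UTR in starved cells.

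SPARC and THBS1 were the members with at least 1 stop per nucleotide in both in-cell libraries. Mean E at coding A and C of SPARC was 0.813 in unstressed cells and 0.286 in starved cells, a ratio of 0.351 (0.311 to 0.395). In THBS1 it was 0.107 and 0.00592, on 384 and 15 stops, and both values went with the shift of stops to the 3′ UTR just described. The direction rests on how unlisted nucleotides are counted: taken as 2 stops in place of 0, they turn the ratio to 1.04 for SPARC and 1.35 for THBS1. COL1A1, at 1.94 and 0.899 stops per nucleotide, missed the minimum in starved cells. Its repeat glycine G held 131 stops before and 30 after starvation, and the ratio of these G to the G of X and Y codons was 0.647 (0.497 to 0.843) and 0.720 (0.402 to 1.31). The intervals of this ratio overlapped. The listed levels were lower in starved cells, with a mean E of 0.0953 (0.0797 to 0.113) and 0.0470 (0.0317 to 0.0671) at repeat glycine G and of 0.700 (0.669 to 0.731) and 0.151 (0.131 to 0.174) at A and C of the repeats. These too turned with unlisted nucleotides counted as 2, from a starved over unstressed ratio of 0.493 to 2.09 and of 0.216 to 1.58.

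The A and C with the largest counts in cells were all A in 3′ UTRs, 3 in THBS1 and 2 in SPARC. The largest, in THBS1 (chr15:39889453), held 28 and 15 stops without DMS, 46 and 80 in RNA refolded in K+ and Li+, 230 in unstressed cells (E 118) and 54 in starved cells (E 39.2). The largest of SPARC (chr5:151042132) held 49 and 44 stops without DMS, 54 and 87 in refolded RNA, 197 in unstressed cells (E 42.4) and 35 in starved cells (E 14.7). The sites were chosen by these in-cell counts, so their order between the cell states is a description only.

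The share of a transcript among all listed stops of a library, in stops per 1000000 listed stops (spm), serves here as its level. It reflects RNA level together with how many stops pass the listing minimum, and fewer cells of a type and less RNA per cell cannot be told apart in it. COL1A1 held 651 and 692 spm without DMS (labelled K+ and labelled Na+), 722 and 749 in RNA refolded in K+ and Li+, 687 in unstressed cells and 126 in starved cells. SPARC held 874 and 874, 961 and 848, 1206 and 303 in the same order, and THBS1 782 and 751, 822 and 798, 755 and 287. The starved library was the low one for each of them, and the other 5 differed by 1.15-fold for COL1A1, 1.42-fold for SPARC and 1.09-fold for THBS1. The spread of these 5 was widest in COL6A1, at 1.84-fold, and COL5A1 was only 1.29-fold lower in starved cells than in the lowest of them. COL4A2 held between 190.5 and 211 in 5 libraries and 20.1 in starved cells.

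Per kilobase of transcript in unstressed cells, SPARC was highest at 393 spm per kilobase, followed by THBS1 at 131, COL1A1 at 117, COL4A2 at 32.1 and FN1 at 29.2. The remaining collagens lay between 7.78 (COL5A1) and 11.8 (COL6A2). In starved cells the order at the top was SPARC (98.7), THBS1 (49.6) and COL1A1 (21.3).

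**Figure D4:**
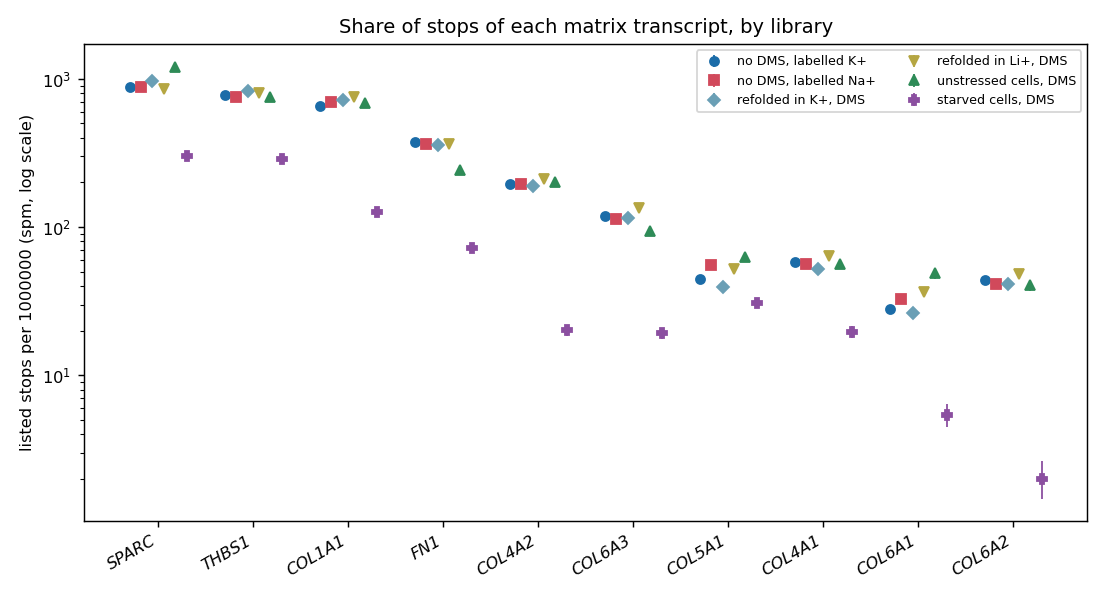
Listed stops per 1000000 (spm, log scale) of the 10 matrix transcripts in each of the 6 libraries, ordered by their level in unstressed cells, with exact 95% counting intervals, most of which are smaller than the symbols. The starved library lies lowest for every transcript, for COL1A1 at 126 against 651 to 749 in the other 5.

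Starved cells gave a share at least 1.5-fold lower for all 9 covered transcripts, beside a background of 42.9% of 5883 transcripts that were lower and 28.4% that were higher by that much. COL4A2 was 9.97-fold lower (9.04 to 11.0), COL6A1 9.06-fold (7.49 to 11.0), COL1A1 5.46-fold (5.24 to 5.69) and COL6A3 4.93-fold (4.42 to 5.50). SPARC was 3.98-fold lower (3.87 to 4.09), FN1 3.39-fold (3.19 to 3.59), COL4A1 2.87-fold (2.55 to 3.22), THBS1 2.63-fold (2.55 to 2.72) and COL5A1 2.06-fold (1.86 to 2.27). In this order the intervals of COL4A2 and COL6A1 overlapped, as did those of COL1A1 and COL6A3, of FN1 and COL4A1 and of COL4A1 and THBS1. COL6A2, under the coverage minimum, had 528 stops in unstressed cells and 48 after starvation, 20.3-fold lower in share (15.1 to 27.9). The median log2 change of the 9 was -1.99, and that of all 5883 transcripts -0.26.

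The change depended on where in the transcript it was read, a split chosen after seeing the data. On coding stops alone COL1A1 was 8.97-fold lower (8.41 to 9.57), and on 3′ UTR stops alone 3.38-fold (3.19 to 3.57). For SPARC the values were 9.63-fold (8.61 to 10.8) and 3.62-fold (3.52 to 3.73), and for COL4A2 70.7-fold (44.4 to 120) and 7.62-fold (6.88 to 8.45). With stops under the listing minimum estimated from the deposited base means, COL1A1 changed by -1.85, COL4A2 by -2.52 and COL6A1 by -1.82 on the log2 scale, in place of -2.45, -3.32 and -3.18.

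Base composition moved with the change, and after subtraction of the median of transcripts of like G+C content 6 of the 9 members were still at least 1.5-fold lower, beside 25.6% of 5635 transcripts. Over 5635 transcripts the Spearman correlation of G+C content with the log2 change was -0.79, a description across transcripts of the same pair of libraries. The covered members ranged from 46.8% G+C (SPARC) to 63.6% (COL6A1), and the median transcript had 47.5%. COL1A1, at 61.6%, changed by -2.45 on the log2 scale, against a median of -2.30 for the 219 transcripts within 1 percentage point of its G+C content. COL4A1 changed by -1.52 against -1.49 for its own G+C neighbours, so neither COL1A1 nor COL4A1 stood apart from them. SPARC changed by -1.99 against -0.14, THBS1 by -1.40 against -0.48, FN1 by -1.76 against -0.95, COL4A2 by -3.32 against -2.27, COL6A1 by -3.18 against -2.36 and COL6A3 by -2.30 against -1.34. COL5A1 changed by less than its neighbours, with -1.04 against -2.31. Whether G+C content has a part in the lower shares was not tested.

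**Figure D5:**
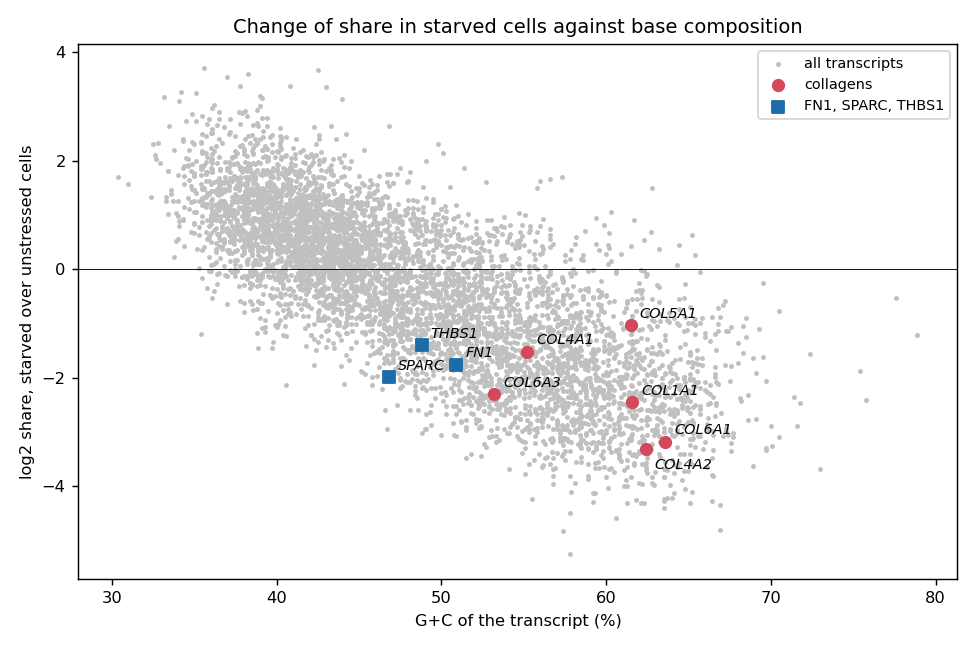
Log2 change of share in starved over unstressed cells against the G+C content of the transcript, for 5635 transcripts (grey), the covered collagens (circles) and FN1, SPARC and THBS1 (squares). All 9 members lie under 0, with SPARC at -1.99 low among transcripts of its G+C content, COL1A1 at -2.45 amid them and COL5A1 at -1.04 above most of them.

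Other genes of the matrix were read from 5 lists, beside the 42.9% of all transcripts that were lower and 28.4% that were higher by at least 1.5-fold. Of 12 tested genes of collagen synthesis and cross-linking, 10 were lower and 1 higher by at least 1.5-fold, with a median log2 change of -2.35. P4HB, a subunit of prolyl 4-hydroxylase, went from 897 to 151 spm (5.94-fold lower, 5.72 to 6.16), and PPIB, a proline isomerase of the endoplasmic reticulum, from 1023 to 567 (1.81-fold, 1.76 to 1.85). Of 13 matrix glycoproteins and proteoglycans, 10 were lower and 0 higher (median -1.80), among them the basement membrane proteoglycan AGRN at 8.14-fold (7.63 to 8.68), while TGFBI differed by 1.18-fold (1.16 to 1.20). Of 11 matrix receptors, 6 were lower and 0 higher (median -0.94), a share of lower genes not far from that of all transcripts. The integrin subunits ITGB5 and ITGB1 were 7.69-fold (7.18 to 8.24) and 1.09-fold lower (1.07 to 1.10). Of 8 proteases and inhibitors, 6 were lower and 1 higher (median -1.91), with TIMP1, an inhibitor of metalloproteinases, 3.33-fold lower (3.22 to 3.45) and the membrane protease ADAM9 1.62-fold higher. Only 2 other collagens had coverage, and both were lower. After subtraction of the median of transcripts with like G+C content, the list medians were -0.73 for synthesis, -0.51 for glycoproteins, -1.10 for receptors, -1.01 for proteases and inhibitors and 0.05 for the 2 other collagens.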

How the data were processed

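The authors removed duplicate reads with SAMtools, mapped the rest to hg19 RefSeq transcripts with Bowtie and deposited, for each of 6 libraries, the count of RT stops at each nucleotide and the ratio of that count to the mean over the same base of the transcript. Versions are not given in the sources used here. Only nucleotides with at least 3 stops are listed. Groups follow the sample labels. The members and gene lists were chosen with earlier results of these data known.

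Symbols came from RefSeq. Sequences were taken from GENCODE release 44 lifted to GRCh37: listed bases had to match at 97% or more over at least 80% of them, and 10422 transcripts matched, including all 10 members. Sequences were trimmed at the last listed nucleotide. Base means were recovered as summed counts over summed ratios and combined by base composition into the transcript mean behind E, so unlisted stops enter the mean but count as 0 at their nucleotide. Shares have exact (Clopper-Pearson) intervals, ratios of counts exact conditional ones, and a transcript enters the in-cell comparison with at least 100 listed stops in both libraries.

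Genes were named by list membership. Sites were named as the highest coding G of each member, each G with E of at least 10, at least 20 stops and at least 2-fold the other no-DMS library, and the 5 largest A or C counts in cells. A site that this rule also names is not reported here. From each list up to 4 genes with at least 1000 stops in both in-cell libraries and the largest and smallest changes could be named, and the text gives some of them. The computations were tested on simulated stops, with scipy 1.17.1, pandas 2.3.3, numpy 2.4.6 and Biopython 1.88 under Python 3.11.15. With 1 library per condition no test was run.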

Additional observations from a re-analysis of the deposited data

How the results depend on the processing

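No paired analysis was possible because each condition has a single library, and leaving out a library was not possible for the same reason. Depth limited single nucleotides to 5 members without DMS and to 2 in cells, and the listing minimum of 3 stops removes more of the signal where a transcript is thin. Of the alternatives that bear on a main comparison, 26 stayed within the counting interval or within 1.5 times the count, 20 moved further and 5 turned the direction. Of those that bear on other comparisons, 1 stayed, 17 moved further and 9 turned the direction.

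Requiring 1000 listed stops left 4 members in place of 9, all 4 lower in starved cells. Centred on transcripts of like G+C content, a choice made after seeing the data, 6 of 9 members were at least 1.5-fold lower (25.6% of all transcripts) and the log2 change of COL5A1 turned to 1.27. With unlisted nucleotides counted as 2, the repeat glycine ratio was 0.822 for COL1A1 (labelled K+) and 0.925 and 0.946 for COL4A2 (labelled K+ and Na+), the K+ over Li+ ratio turned to 1.15, 1.11 and 1.01 for COL1A1 (repeat glycine G, other coding G, coding A and C), 1.34 for both classes of COL4A2, 1.26 for FN1 and 1.18 for THBS1, and the starved over unstressed ratio at coding A and C turned to 1.04 for SPARC and 1.35 for THBS1. At repeat glycine G and repeat A and C of COL1A1 it turned to 2.09 and 1.58 (added after seeing the data). With the stops at coding A and C of SPARC divided by the mean over its U and G nucleotides only, the starved over unstressed ratio was 0.218. For COL1A1 the glycine ratio was 0.979 and 1.01 with the first G only and 0.576 and 0.600 with the second G only (labelled K+ and Na+), and 0.972 and 1.00 against X and Y codons (added after seeing the data). For COL4A2 against those codons it was 0.786 (labelled K+). Relative to other coding G, the K+ over Li+ ratio of COL1A1 was 0.984 (also added).

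With a minimum of 0.25 stops per nucleotide, 7 of 7 collagens had a glycine ratio under 1 (labelled K+, 2 of 2 before), COL6A1 with 0 stops at its 218 repeat glycine G. Over 942 transcripts the ratio for all glycine codons had a median of 0.838 and an upper quartile of 0.943, so a ratio under 1 was usual. At the lower minimum, 4 of 4 members had a lower mean E at coding A and C in starved cells. Strong coding G there numbered 4 (labelled K+) and 7 (labelled Na+). With E of at least 5, strong coding G numbered 11 and 16 of 6268 in the 5 transcripts past the higher minimum. Neither these counts of strong coding G nor the 4 of 4 have a share over all transcripts beside them. Strong G at least 2-fold higher in the library used as K+ numbered 1 as labelled and 5 when the pair was swapped. At 3-fold they numbered 0 and 5.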
